A study of Mus musculus with 30 samples.

Results

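The cell-cycle and proliferation genes described here are 38 of the 51752 genes in the deposited count table, taken by gene symbol from a fixed list, and all 38 were found. They comprise the D-type cyclins Ccnd1, Ccnd2 and Ccnd3, their kinases Cdk4 and Cdk6, the inhibitors Cdkn1a and Cdkn1b, the transcription factors E2f1 and Foxm1, the E-type cyclins Ccne1 and Ccne2 with Cdk2, 10 genes of DNA replication and nucleotide supply, and 16 genes of G2 and mitosis. The mice came from 2 experiments on interleukin-34 (IL-34), a cytokine that binds the receptor encoded by Csf1r. In the genotype experiment, 4 mice labelled IL34 Het (2 males and 2 females) were the controls for 3 labelled IL34 KO (animal 3 male, animals 6 and 24 female), so the controls also carried 1 mutated copy of Il34. In the antibody experiment, 4 mice given a-gp120, an antibody to a viral protein (animals 1 and 7 male, 8 and 15 female), were the controls for 4 given a-IL34 (animals 2, 10 and 24 male, 11 female). These arms are called Het, KO, anti-gp120 and anti-IL34 below. The labels give no age, strain, allele, antibody dose or schedule, and no genotype for the antibody-treated animals. All mice were perfused with saline, and each gave 1 whole-forebrain library and 1 library of cells captured from brain with an antibody to CD11b, a surface protein of microglia and other myeloid cells. These captured cells are called isolated microglia, as in the labels.

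A cell that is to divide first raises D-type cyclins in G1, which activate CDK4 and CDK6 and free E2F transcription factors from the retinoblastoma protein. E2F factors then drive genes of S phase such as the MCM helicase subunits, PCNA and ribonucleotide reductase, and later the B-MYB and FOXM1 complexes drive genes of G2 and mitosis such as Cdk1, Top2a and the cyclins A and B. Microglia depend on CSF1R signalling for survival and for division, and oligodendrocyte precursors and neural progenitors also divide in the young and adult brain. Several of the genes have other uses: Ccnd1, Ccnd2, Cdkn1a and Cdkn1b are transcribed in many cells that are not dividing.

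Library totals ran from 15.1 to 75.2 M counts (M for mega) in forebrain and from 15.8 to 50.5 M in isolated microglia. All 38 genes passed the expression filter of every comparison, and the lowest count of any of them in any library was 7 in forebrain and 15 in isolated microglia. Il34 itself stood at 19.2 to 23.5 CPM (counts scaled to library size, here with TMM factors within a tissue) in Het forebrain and at 6.78 to 8.75 CPM in KO forebrain, while in isolates the arms overlapped, at 4.89 to 9.82 CPM in Het and 5.15 to 6.67 CPM in KO. Of the 10 microglial markers examined, 9 were found under their symbols. They summed to 10422 to 18667 CPM in Het isolates and 3912 to 4455 CPM in KO isolates. The sums were 13384 to 17640 CPM with anti-gp120 and 5358 to 8286 CPM with anti-IL34. The isolated libraries of the IL-34-deprived arms therefore held less RNA of these markers for their depth. In these bulk samples fewer cells of a type and less RNA of its markers per cell cannot be told apart. The deposited gene lengths equal whole gene spans, so intronic reads appear to be counted, which was not tested, and 9 of the 38 genes overlap a protein-coding neighbour: Ccnd1, Ccnd3, Cdk4, Foxm1, Ccne2, Cdk2, Mcm7, Ccna2 and Cdc20. Reads of these genes cannot be fully told apart from those of the neighbour, since strand use is not given in the sources used here.

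Promoter sequences of 5 of the genes are shown because the timing of these genes in the cycle is classically read from short motifs near the start of transcription. Each stretch is the 200 bases before the RefSeq start of the gene (GRCm38.p6, 5′ to 3′ on the strand of the gene). Capitals mark the cell-cycle homology region (CHR, TTTGAA or TTCGAA), the CCAAT box and the E2F site (TTTCCCGC, TTTGGCGC or TTTCGCGC), each read on both strands. Cdk1, Top2a and Mki67 stand for genes with several CHR and CCAAT motifs, Kif11 for a gene of mitosis with 1 of each, and Mcm6 for replication.
Cdk1, chr10:69352913-69353112, minus strand: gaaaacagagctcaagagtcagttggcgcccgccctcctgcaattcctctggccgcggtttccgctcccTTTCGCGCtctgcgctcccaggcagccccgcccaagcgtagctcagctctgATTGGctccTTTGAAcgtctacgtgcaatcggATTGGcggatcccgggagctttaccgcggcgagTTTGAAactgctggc
Top2a, chr11:99024190-99024389, minus strand: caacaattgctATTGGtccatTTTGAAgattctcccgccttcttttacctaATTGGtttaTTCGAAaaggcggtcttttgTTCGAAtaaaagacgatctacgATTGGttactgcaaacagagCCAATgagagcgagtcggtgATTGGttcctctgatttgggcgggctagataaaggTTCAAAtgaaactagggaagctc
Mki67, chr7:135716380-135716579, minus strand: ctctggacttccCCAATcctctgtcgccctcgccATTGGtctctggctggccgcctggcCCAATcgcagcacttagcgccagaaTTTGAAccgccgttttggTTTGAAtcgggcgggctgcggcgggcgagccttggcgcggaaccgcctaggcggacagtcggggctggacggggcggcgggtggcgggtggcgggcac
Kif11, chr19:37376182-37376381, plus strand: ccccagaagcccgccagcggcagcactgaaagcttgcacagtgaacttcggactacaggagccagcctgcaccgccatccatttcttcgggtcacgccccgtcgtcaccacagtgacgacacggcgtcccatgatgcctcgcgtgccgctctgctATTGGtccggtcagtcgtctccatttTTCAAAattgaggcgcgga
Mcm6, chr1:128359706-128359905, minus strand: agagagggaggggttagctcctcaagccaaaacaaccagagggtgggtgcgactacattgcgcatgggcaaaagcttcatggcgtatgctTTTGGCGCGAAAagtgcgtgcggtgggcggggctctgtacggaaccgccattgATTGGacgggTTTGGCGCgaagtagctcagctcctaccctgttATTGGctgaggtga

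Cdk1 has a CHR match starting 15 bases before the start and another at -71, Kif11 has one at -19, and Mki67 has a pair at -116 and -98. Top2a has 4 CHR matches, at -179, -140, -120 and -23, and 5 CCAAT matches in the stretch shown. Mcm6 has no CHR match there and 3 E2F matches, at -110, -106 and -47, of which the first and second overlap. RefSeq windows of 300 bases (250 before to 50 after the start) were found for 31 of the 38 genes. Among the G2 and mitosis genes, 11 of the 14 with a window held both a CHR and a CCAAT match (78.6%), against 2328 of all 27025 genes with a window (8.61%). Among the replication genes, 4 of 9 held an E2F match (44.4%), namely Mcm3, Mcm5, Mcm6 and Mcm7, against 2.12% of all genes. E2F matches were also found in Cdk1 and Cdk2. Across the member windows 1 match of one motif overlapped a match of another. A match is a description of the letters in the window and not a measured site.

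In control animals nearly all of these genes were more abundant in isolated microglia than in whole forebrain. The comparison used the 8 Het and anti-gp120 animals, with both libraries of each. Of the 38 genes, 34 were higher and 3 lower in the isolates at an adjusted p under 0.05 (edgeR, Benjamini-Hochberg over all genes tested), beside 40.5% of all tested genes higher and 43.0% lower (83.5% in either direction). The median log2 difference over the 38 genes was 1.23, beside -0.05 over all tested genes. The direction of the 37 calls held in every alternative, a replicate block for the animal included.

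Mcm3, a subunit of the MCM replicative helicase, differed most, at 1.82 to 2.83 CPM in control forebrain and 22.1 to 41.3 CPM in the isolates. Its log2 difference was 3.86 (SE 0.134, adjusted edgeR p 2.43e-13), a 14.5-fold difference. Its partner Mcm2 differed by 2.22 (SE 0.143), while Mcm6, Mcm4, Mcm5 and Mcm7 differed by 1.33, 1.03, 0.96 and 0.70. The read counts of these genes, whose products form 1 complex, therefore differed by unequal amounts between the tissues. Levels of the proteins were not measured. Pcna, the sliding clamp of DNA polymerase, was 2.19 higher (SE 0.144), at 13.6 to 15.9 CPM in forebrain and 34.1 to 91.3 CPM in the isolates. The 2 subunits of ribonucleotide reductase, Rrm1 and Rrm2, were 0.79 and 0.69 higher.

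Among the G1 genes, Cdk6 was 3.30 higher in the isolates (SE 0.126, adjusted edgeR p 6.80e-13), at 11.0 to 13.5 CPM in forebrain and 79.9 to 162 CPM in the isolates. Cdk4, which binds the same cyclins, was 0.93 higher (SE 0.0641). The D-type cyclins split 3 ways. Ccnd3 was 2.79 higher (SE 0.166), Ccnd1 was 1.56 higher (SE 0.0705), and Ccnd2 did not pass the test, with a log2 difference of -0.07 (adjusted edgeR p 0.542). Ccnd2 stood at 113 to 140 CPM in control forebrain and 77.1 to 140 CPM in control isolates, overlapping ranges. Cdkn1a, the CDK inhibitor p21, was 2.42 higher (SE 0.207) and Cdkn1b, the inhibitor p27, was 0.18 higher (adjusted edgeR p 0.00851).

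The 3 genes that were lower in the isolates were the E-type cyclins, which activate CDK2 at the start of S phase, and E2f1. Ccne1 stood at 8.12 to 10.6 CPM in control forebrain and 1.07 to 2.13 CPM in the isolates, a log2 difference of -2.47 (SE 0.107, adjusted edgeR p 3.10e-12). Ccne2 differed by -2.20 (SE 0.149) and E2f1 by -0.40 (adjusted edgeR p 0.00368). Cdk2, the kinase that the E-type cyclins activate, went the other way, with a difference of 2.96 (SE 0.105). The span of Ccne2 overlaps the more highly counted gene Ints8, so its value may include Ints8 reads. The same holds for Cdk4 (Tspan31), Mcm7 (Cops6 and Ap4m1), Ccna2 (Exosc9) and Cdc20 (Elovl1), whose neighbours were also more highly counted.

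All 16 G2 and mitosis genes were higher in the isolates, with log2 differences from 0.41 (Ccna2, adjusted edgeR p 0.0127) to 2.78 (Cdk1, SE 0.117, adjusted edgeR p 2.24e-12). Mki67, which encodes the proliferation antigen Ki-67, was at 9.53 to 15.3 CPM in control forebrain and 30.8 to 69.1 CPM in control isolates, a difference of 2.06 (SE 0.127). Top2a, the topoisomerase of dividing cells, differed by 1.58 (SE 0.143). The 13 genes with both CHR and CCAAT matches had a median of 1.43 and a range of 0.63 to 2.78, and the 6 with an E2F match a median of 2.05. Per kilobase of exon, the G2 and mitosis genes ranked from 11 (Mki67) to 38 (Ccnb1) of the 38 in the isolates. In forebrain they ranked from 16 (Ccnb2) to 38 (Bub1). Mki67 had 5.06 CPM per kb in the isolates and Cdk1 1.70, against 26.3 for Pcna, 25.4 for Cdkn1a and 16.7 for Ccnd1, the 3 highest of the 38 by that scale. In forebrain the highest 3 were Ccnd2 (13.1 CPM per kb), Cdkn1b (11.4) and Cdk4 (8.62). These ranks move when levels are set per kilobase of gene span, where Ccnd3 for example falls from rank 7 to rank 14 in the isolates. The isolates were also higher in markers of other CD11b-positive cells, with median log2 differences of 5.80 for 8 neutrophil and monocyte markers and 5.07 for 6 border-associated macrophage markers, beside 5.44 for the microglial markers. All 10 immediate early and stress genes were higher as well, with a median of 6.06. So were all 6 endothelial markers (median 2.07) and 3 of 6 choroid plexus markers (median 1.504), although the 2 control arms differed in direction for the choroid plexus sum. It was 497 to 607 CPM in forebrain and 2700 to 5963 CPM in isolates of Het, and 245 to 391 CPM and 83.2 to 201 CPM with anti-gp120. Of the oligodendrocyte precursor markers 1 of 8 passed, higher (median 0.21), and of the astrocyte markers 3 of 6, all higher (median 0.55). Neuronal markers were lower, 7 of 7 passing (median -4.26), as were 6 of 9 tested markers of neural progenitors and neuroblasts, with 2 higher (median -1.09). The part of these in the cell-cycle differences was not tested.

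**Figure D1:**
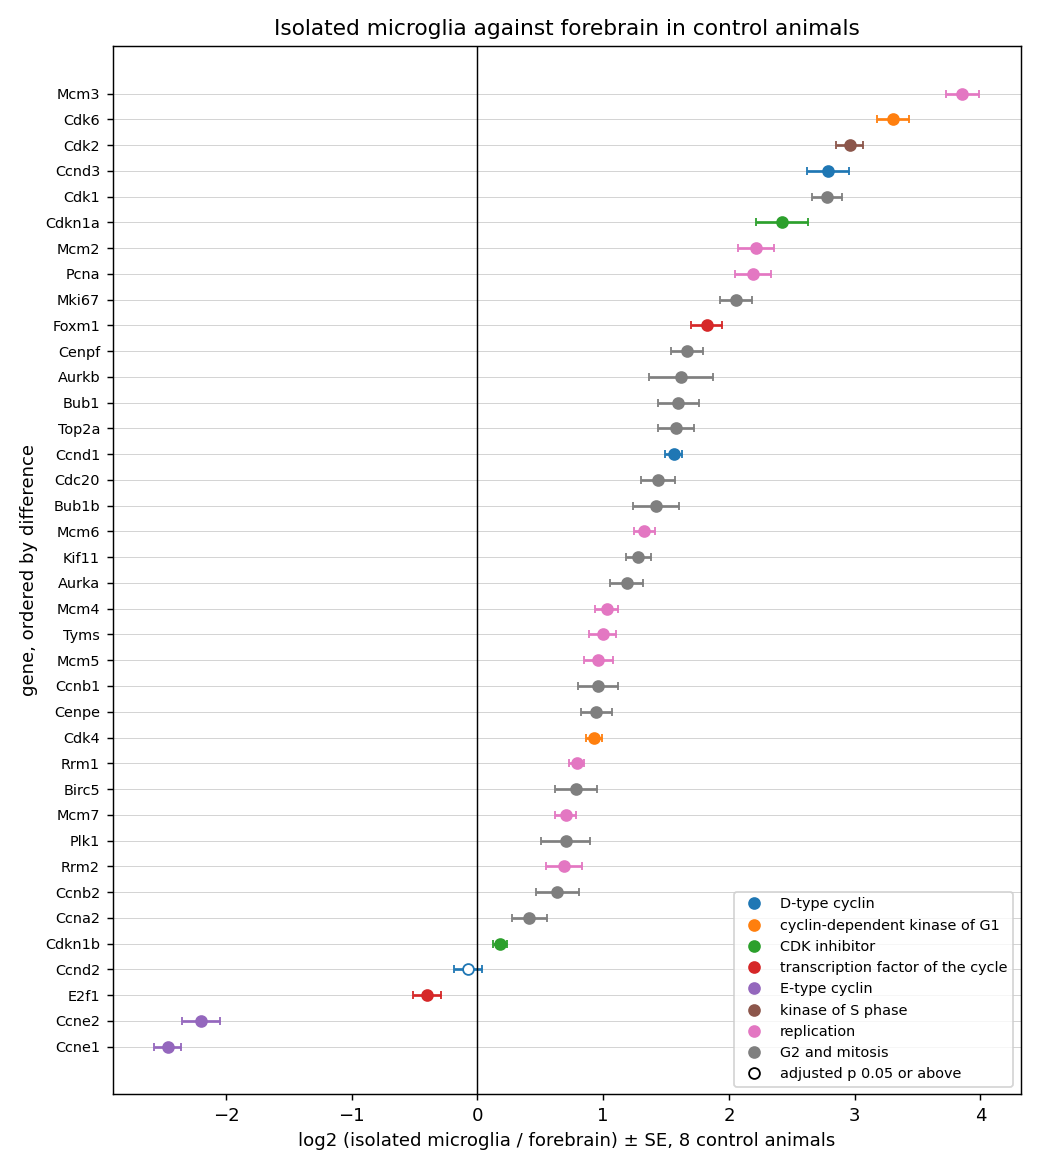
Log2 ratio of isolated microglia to whole forebrain for each of the 38 genes in the 8 control animals, with the standard error as bars and colours for the role of the gene. Points right of 0 are higher in the isolates: 34 genes passed the test on that side, Ccne1, Ccne2 and E2f1 on the other, and Ccnd2 (open point) on neither.

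In whole forebrain none of the 38 genes passed the test in either experiment. Between KO and Het the count was 0 of 38 (0%, beside 0.62% of all tested genes), and 3 had an unadjusted p under 0.05 (7.89%, beside 7.45% of all tested genes). DESeq2 called none as well. The log2 fold changes lay between -0.33 and 0.25, with a median of 0.03. Ccnd3 had the smallest p, at 11.4, 16.5, 10.6 and 11.9 CPM in Het animals 1, 20, 21 and 23 and 9.63, 10.5 and 10.8 CPM in KO animals 3, 6 and 24. Its change was -0.33 (SE 0.110, adjusted edgeR p 0.436), and it alone passed, at an adjusted p of 0.0168, when no low-count filter was used. The 2 arms overlap, and the highest value is that of Het animal 20.

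The E-type cyclins followed. Ccne2 was at 8.26 to 8.68 CPM in Het and 9.14 to 10.3 CPM in KO forebrain (log2 0.19, SE 0.0782, adjusted edgeR p 0.630), and Ccne1 at 8.94 to 9.77 and 9.72 to 11.9 CPM (log2 0.19, adjusted edgeR p 0.661). The KO and Het values of Ccne2 and of Mcm3 did not overlap, the only 2 such genes of the 38 (5.26%, beside 9.05% of all tested genes). Mki67 stood at 15.26, 14.04, 12.03 and 14.83 CPM in the Het animals and 17.91, 18.12 and 13.01 CPM in the KO animals (log2 0.24, SE 0.113, adjusted edgeR p 0.679). Its lowest KO value, from animal 24, lies inside the Het range. Cenpf, a kinetochore protein, and Top2a had changes of 0.22 and 0.20 with adjusted edgeR p of 0.708 and 0.732. Changes of Ccnd1, Ccnd2, Cdkn1a, Cdkn1b, Cdk1, Pcna and Mcm2 ranged from -0.10 to 0.17. In the same libraries all 9 microglial markers lay below 0, 8 of them passing the test, with a median of -1.42, and all 6 markers of myelinating oligodendrocytes lay below 0, 5 of them passing, with a median of -0.35.

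Between anti-IL34 and anti-gp120 forebrain none of the 38 passed (0 of 38, beside 0.717% of all tested genes), 1 had an unadjusted p under 0.05 (2.63%, beside 4.86% of all tested genes), and DESeq2 called none. No gene of the 38 separated the arms without overlap, beside 3.27% of all tested genes. The gene with the smallest p was Mcm3, at 2.44, 2.54, 2.83 and 1.92 CPM in anti-gp120 animals 1, 7, 8 and 15 and 1.04, 2.23, 1.56 and 1.74 CPM in anti-IL34 animals 2, 10, 11 and 24 (log2 -0.54, SE 0.227, adjusted edgeR p 0.954). Ccnb1, which encodes a mitotic cyclin, and Cdc20, an activator of the anaphase-promoting complex, had changes of -0.55 (SE 0.265) and -0.44 (SE 0.218), both with an adjusted edgeR p of 0.999. Mki67 changed by -0.23, Cenpe by 0.26 and Ccnd1 by -0.17, none passing. Of the 38 genes 28 lay below 0, with a median of -0.07. Ccnd2, the gene that passed in KO isolates below, had a change of 0.01 in this comparison. Cdkn1a, Cdkn1b, Cdk1, Pcna and Top2a had changes from -0.17 to 0.02, Ccnd3 one of -0.18 and Mcm2 one of -0.33, again with none passing.

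In isolated microglia Ccnd2 rose in KO, the only gene of the 38 to pass the test, and none of the 16 genes of G2 and mitosis passed. The count was 1 of 38 (2.63%), beside 5.37% of all tested genes, of which 0.143% were higher and 5.22% lower. An unadjusted p under 0.05 was found for 13 of the 38 (34.2%), beside 32.6% of all tested genes, so by these counts the 38 were close to the background of this comparison. The median change was 0.36, beside 0.02 over all tested genes.

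Ccnd2 (ENSMUSG00000000184, chromosome 6, positions 127125162 to 127152193, minus strand, GRCm38) stood at 139, 116, 99.6 and 125 CPM in Het animals 1, 20, 21 and 23 and at 186, 208 and 241 CPM in KO animals 3, 6 and 24. All 3 KO values lie above all 4 Het values. The log2 fold change was 0.80 (SE 0.167, adjusted edgeR p 0.0450), a 1.74-fold rise. Its call was lost when Het animal 20 or 23 or any 1 KO animal was left out, with a log2 change of 0.72 to 0.92 and an adjusted edgeR p of 0.0101 to 0.279 over the 7 fits that leave out 1 animal. In those 5 fits no gene of the whole table was called. DESeq2 gave an adjusted p of 0.000244. A lncRNA antisense to Ccnd2, 9330179D12Rik, lies within its span and was counted far less.

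Of the 16 G2 and mitosis genes, 15 lay above 0 in KO isolates, with a median of 0.62 and none passing the test. Mki67 was at 51.9, 44.5, 57.4 and 69.1 CPM in Het animals 1, 20, 21 and 23 and at 71.1, 104 and 110 CPM in KO animals 3, 6 and 24. The arms do not overlap, but KO animal 3 lies just above the highest Het animal. The change was 0.71 (SE 0.183, adjusted edgeR p 0.0752), and it passed with DESeq2 (adjusted p 0.0142) and without Het animal 1 or 21.

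Top2a was at 30.3, 24.6, 29.5 and 40.2 CPM in Het and 40.0, 59.1 and 75.8 CPM in KO isolates. KO animal 3 here falls below Het animal 23, so the arms overlap. The change was 0.81 (SE 0.218, adjusted edgeR p 0.0822; 0.0149 with DESeq2). Cenpf (0.70), Kif11, the spindle motor Eg5 (0.52), Bub1, a spindle checkpoint kinase (0.73), Cenpe, a kinetochore motor (0.64), and Ccna2, which encodes cyclin A2 (0.81), had adjusted edgeR p from 0.107 to 0.141. Cdk1 was the exception among the 16, with a change of -0.01 (SE 0.163) and values of 8.64 to 11.6 CPM in Het and 8.35 to 10.4 CPM in KO isolates.

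The 3 KO animals were not alike. Summed over the 16 genes, the level was 142 to 218 CPM in the Het isolates and 208, 310 and 358 CPM in KO animals 3, 6 and 24. KO animal 3, the only male of its arm, exceeded all 4 Het animals for 3 of the 16 genes, animal 6 for 15 and animal 24 for 14, beside 32.4%, 33.3% and 34.6% of all tested genes in these animals. Animal 24 was the highest of all 7 libraries for 14 of the 16 and for 25 of the 38, beside 23.6% of all tested genes. Ccnb1 shows the spread, at 1.52 to 3.50 CPM in Het and 2.50, 3.76 and 6.70 CPM in KO isolates. The forebrain library of KO animal 24 went the other way. It lay below all 4 Het forebrains for 18 of the 38 genes and above them for 6, beside 25.9% and 24.7% of all tested genes. The 13 genes with both CHR and CCAAT matches had a median change of 0.46 between KO and Het isolates, 11 of them above 0. The 18 genes with a window but not both matches had a median of 0.17, and the 6 with an E2F match one of 0.08.

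The replication genes lay on both sides of 0 and none passed. Rrm2, the regulated subunit of ribonucleotide reductase, was at 6.87, 6.29, 4.95 and 9.85 CPM in Het and 9.10, 12.7 and 19.0 CPM in KO isolates (log2 0.84, SE 0.251, adjusted edgeR p 0.0989). Mcm3, the gene with the largest excess in the isolates of controls, had a change of -0.61 (SE 0.239, adjusted edgeR p 0.141), Pcna one of -0.70 (SE 0.336, adjusted edgeR p 0.187) and Mcm2 one of -0.23. Mcm4, Mcm5, Mcm6 and Mcm7 had changes from 0.17 to 0.24, none passing. Pcna ranged from 34.1 to 91.3 CPM among the Het isolates, with animal 1 lowest and animal 21 highest, a spread wider than the difference between arms.

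Among the D-type cyclins and their kinases, Ccnd2 alone lay above 0 in KO isolates. Cdk6 was at 79.9, 114, 162 and 124 CPM in Het and at 54.8, 63.6 and 77.8 CPM in KO isolates, with no overlap. Its change was -0.90 (SE 0.247, adjusted edgeR p 0.0855; 0.0158 with DESeq2), a level of 53.6% of Het. Cdk2 was at 20.8, 28.6, 32.9 and 25.1 CPM in Het and at 18.6, 18.9 and 18.5 CPM in KO isolates (log2 -0.52, SE 0.169, adjusted edgeR p 0.112), again without overlap. Cdk4 had a change of -0.0023, Ccnd1 of -0.13 (SE 0.112) and Ccnd3 of -0.62 (SE 0.343), the last with a Het animal, 20, that stands at 158 CPM against 61.0 to 76.5 in the other 3. E2f1, at 4.72 to 6.06 CPM in Het and 6.37 to 8.36 CPM in KO isolates, had a change of 0.46 (SE 0.179, adjusted edgeR p 0.140). Cdkn1a, with 30.5 to 109 CPM in Het and 47.2 to 59.5 CPM in KO isolates, had a change of -0.52 (SE 0.383), and Cdkn1b one of 0.13. Arms without overlap were seen for 5 genes higher in KO (Ccnd2, E2f1, Mki67, Bub1 and Cenpe, 13.2% beside 19.3% of all tested genes) and 3 lower (Ccnd1, Cdk6 and Cdk2, 7.89% beside 19.4%).

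**Figure D2:**
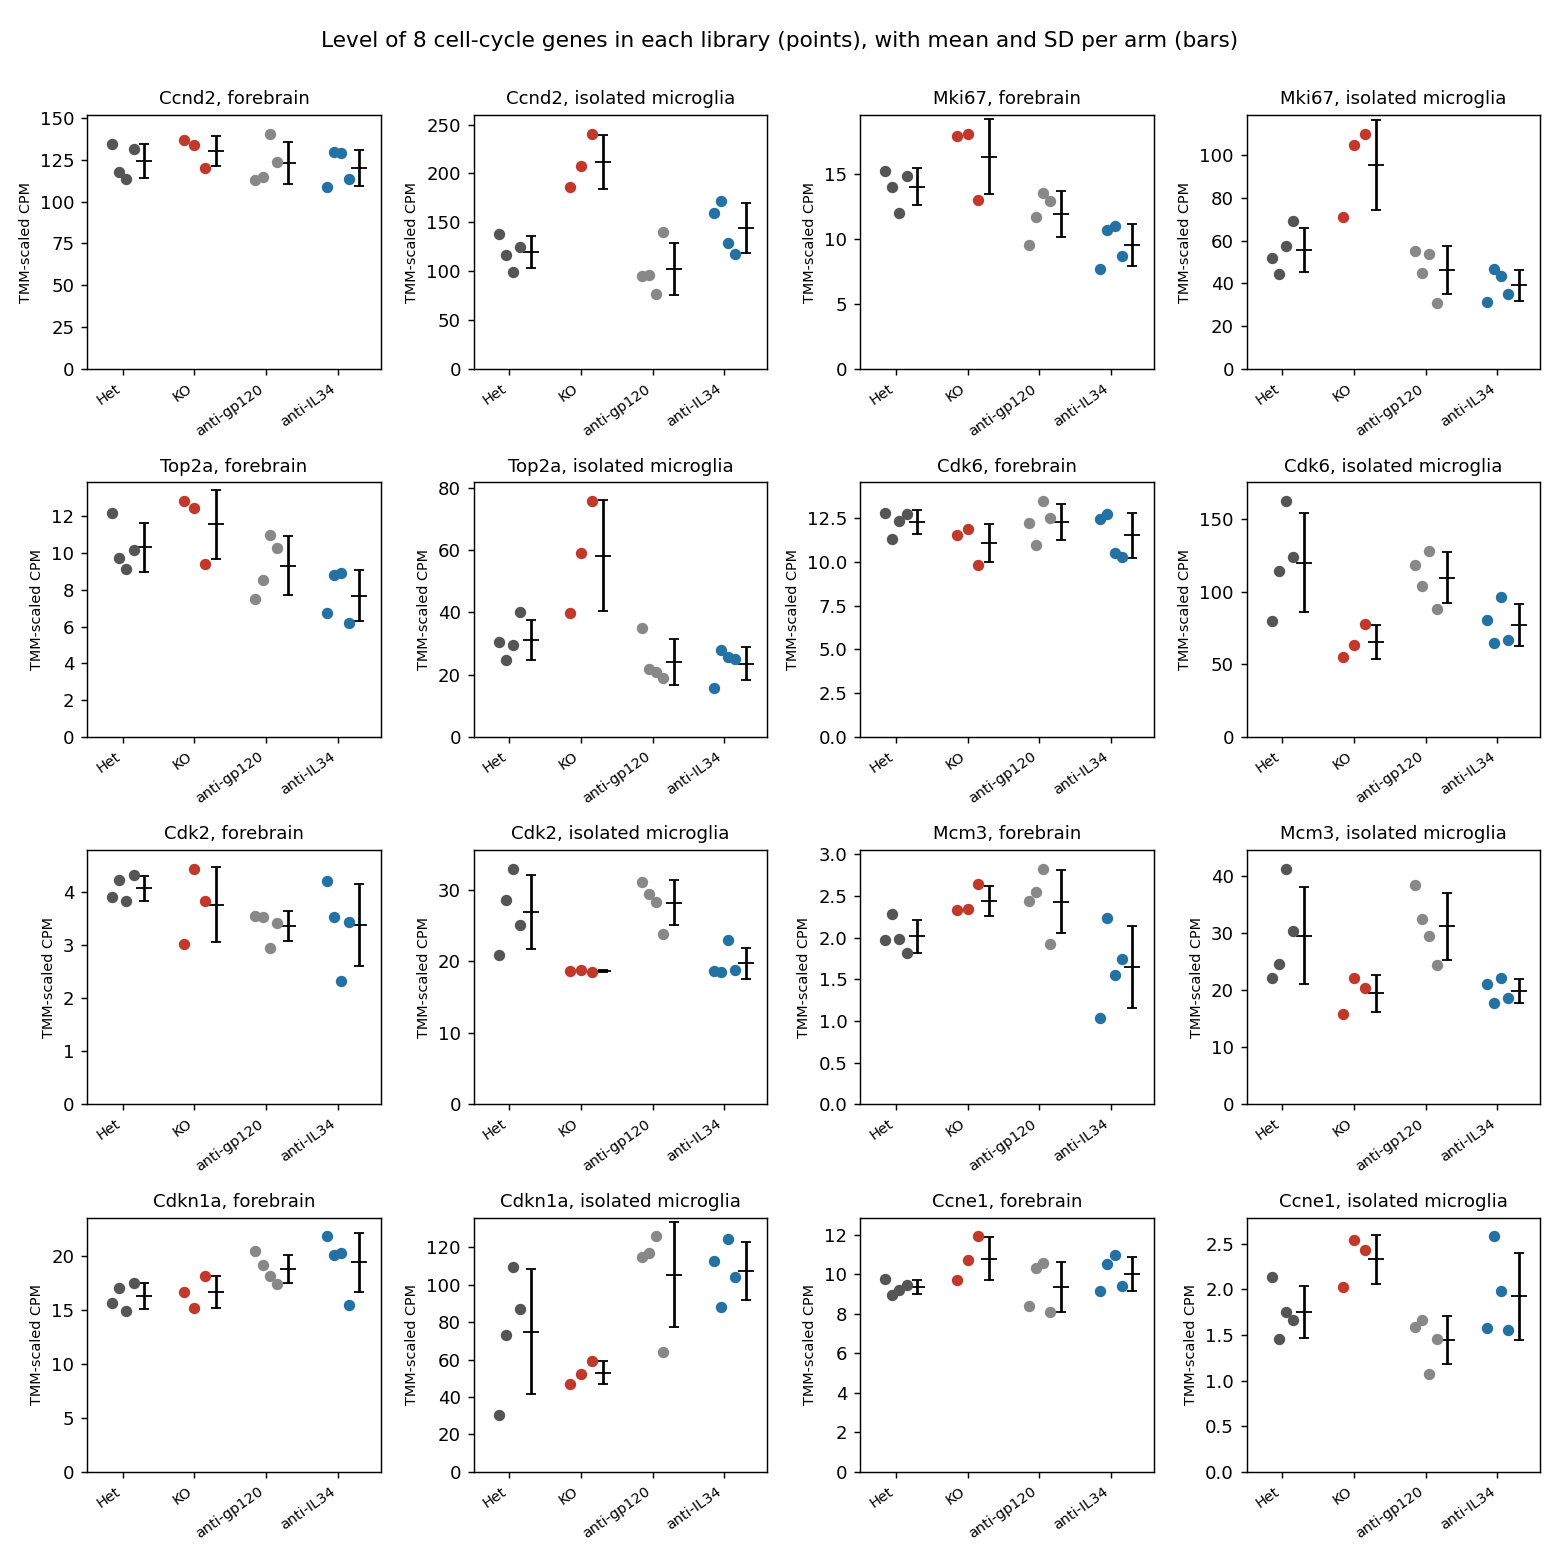
TMM-scaled CPM of 8 genes (vertical axis, starting at 0) in every forebrain and isolated-microglia library, as points by arm, with the mean and SD of each arm as a bar beside them. In KO isolates Ccnd2 lies at 186 to 241 CPM, above all Het isolates at 99.6 to 139 CPM, while Cdk6 and Cdk2 lie below all of theirs and Top2a overlaps at KO animal 3.

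Markers of other cell types were examined in the same isolates. All 9 microglial markers fell, with a median log2 change of -1.63. All 8 markers of oligodendrocyte precursors lay above 0, none passing, with a median of 1.00, and their summed level was 333 to 1222 CPM in Het and 1401 to 1759 CPM in KO isolates. Of 9 tested markers of neural progenitors and neuroblasts 8 lay above 0, with a median of 1.10 and none passing. Their sum was 225 to 314 CPM in Het isolates and 230, 303 and 504 CPM in KO animals 3, 6 and 24, and Tubb3 of that list was at 0 throughout. Neurons (median 0.93), astrocytes (0.95), myelinating oligodendrocytes (0.79) and erythroid cells (0.85) also lay above 0. Astrocyte markers summed to 2915 to 10251 CPM in Het and 11659 to 14334 CPM in KO isolates, without overlap. The sums overlapped for neurons (609 to 2310 and 2042 to 3385 CPM) and myelinating oligodendrocytes (3084 to 10247 and 7785 to 18416 CPM). In KO isolates the astrocyte and myelinating oligodendrocyte sums exceeded the microglial sum, at 3912 to 4455 CPM. Choroid plexus (-0.52) and border-associated macrophages (-0.17) lay below 0, and endothelial cells had a median of 0.04 and neutrophils and monocytes of 0.31, none passing, while all 10 immediate early and stress genes lay below 0 with 5 passing (median -1.22). The part of these shifts in the levels of the cell-cycle genes was not tested.

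In anti-IL34 isolates the mitotic genes lay on both sides of 0 and 2 genes of S phase, Mcm3 and Cdk2, led by p. None of the 38 passed the test (0 of 38, beside 0.626% of all tested genes), although 7 had an unadjusted p under 0.05 (18.4%, beside 25.9% of all tested genes) and DESeq2 called those 2, both lower (5.26%, beside 11.5% of all tested genes). Of the 16 G2 and mitosis genes 6 lay above 0 and 10 below, with a median of -0.07. The 13 genes with both CHR and CCAAT matches had a median of -0.19, 3 of them above 0. The 18 genes with a window but not both matches had a median of 0.04. Mki67 was at 55.1, 44.9, 53.9 and 30.8 CPM in anti-gp120 animals 1, 7, 8 and 15 and at 31.3, 46.9, 43.4 and 35.2 CPM in anti-IL34 animals 2, 10, 11 and 24, overlapping ranges (log2 -0.22, SE 0.219). Top2a had a change of -0.03 and Cdk1 of -0.19, neither passing.

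The smallest p belonged to Mcm3, at 38.4, 32.5, 29.4 and 24.4 CPM with anti-gp120 and 21.1, 17.7, 22.1 and 18.6 CPM with anti-IL34. Every treated animal lies below every control. The change was -0.64 (SE 0.157, adjusted edgeR p 0.0849; 0.0108 with DESeq2), a level of 64.1% of the control. Cdk2 was at 31.1, 29.5, 28.3 and 23.8 CPM with anti-gp120 and at 18.6, 18.6, 23.0 and 18.7 CPM with anti-IL34 (log2 -0.48, SE 0.134, adjusted edgeR p 0.107; 0.0297 with DESeq2), also without overlap. Cdk6 (-0.45, SE 0.168), Mcm2 (-0.42, SE 0.162), Cdk4 (-0.23) and Pcna (-0.32) had adjusted edgeR p from 0.168 to 0.189.

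Ccnd2 lay above 0 here too, at 95.5, 96.4, 77.1 and 140 CPM with anti-gp120 and 159, 172, 129 and 118 CPM with anti-IL34 (log2 0.53, SE 0.214, adjusted edgeR p 0.181). The overlap comes from anti-gp120 animal 15, whose value exceeds those of anti-IL34 animals 11 and 24. Leaving out that animal gave 6 calls among the 38, with Ccnd2 higher (adjusted edgeR p 0.00984) and Cdk2, Cdk4, Cdk6, Mcm2 and Mcm3 lower. Those 6 are 15.8% of the 38, beside 40.4% of all genes tested in that fit. Ccnd1, Ccnd3, Cdkn1a and Cdkn1b had changes of -0.22, 0.19, 0.05 and 0.15. Arms without overlap were seen for 1 gene higher (E2f1, 2.63% beside 3.83% of all tested genes) and 4 lower (Cdk4, Cdk2, Mcm3 and Pcna, 10.5% beside 13.1%). All 9 microglial markers lay below 0 in these isolates as well (6 passing, median -1.21), and markers of oligodendrocyte precursors (median 0.70), neural progenitors and neuroblasts (0.90), neurons (0.95), choroid plexus (3.21), astrocytes (0.68), myelinating oligodendrocytes (0.66) and neutrophils and monocytes (0.74) had medians above 0 with none passing. Markers of border-associated macrophages (median -0.48) and immediate early and stress genes (-0.47) had medians below 0, none passing, and for both the sums of the arms did not overlap. Border-associated macrophage markers summed to 424 to 746 CPM with anti-gp120 and 293 to 398 CPM with anti-IL34, and the early and stress genes to 9057 to 13466 CPM and 6227 to 9051 CPM. The choroid plexus sum was 83.2 to 201 CPM with anti-gp120 and 172, 3367, 900 and 250 CPM in anti-IL34 animals 2, 10, 11 and 24, so animals 10 and 11 carried most of that difference. The sums overlapped for neural progenitors and neuroblasts, at 185 to 267 CPM with anti-gp120 and 205 to 259 CPM with anti-IL34. The part of these shifts was not tested.

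**Figure D3:**
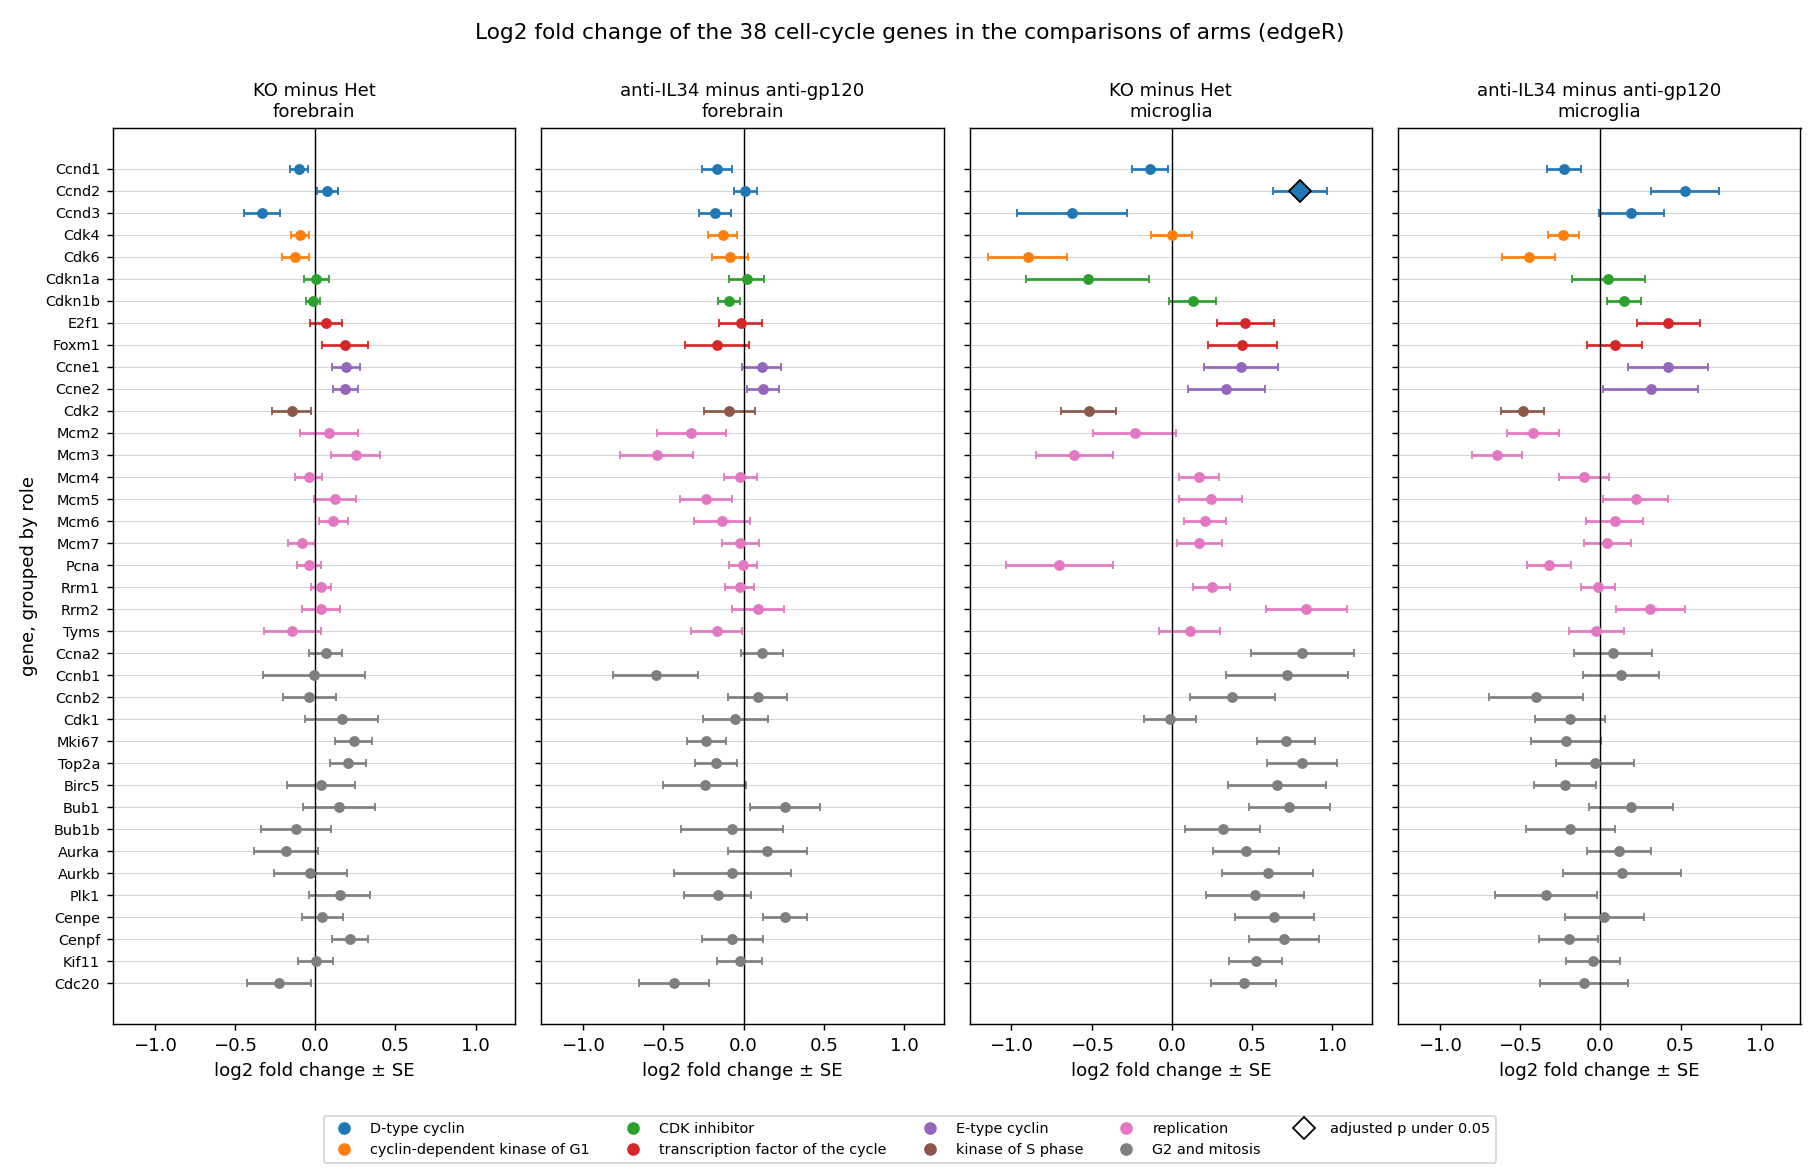
Log2 fold change (horizontal axis, points) with its standard error (bars) for each of the 38 genes in the 4 comparisons of arms, coloured by role, with a diamond for an adjusted p under 0.05. Ccnd2 in KO isolates is the only diamond, and the G2 and mitosis genes lie right of 0 there except Cdk1 and on both sides of 0 in the other 3 panels.

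Whether an effect differed between tissues or between the ways of removing IL-34 was tested directly. The KO effect was larger in isolates than in forebrain for Ccnd2, with a log2 difference of 0.75 (adjusted edgeR p 0.0481, SE 0.178). It was the only 1 of the 38 to pass, beside 2.98% of all tested genes. In this comparison the median over all tested genes was 0.12, so relative to the other genes the Ccnd2 difference was smaller by that amount. The call was lost with the animal as a replicate block (adjusted edgeR p 0.103), a fit that keeps the pairing and in which no gene of the whole table was called. It was also lost with size factors by relative log expression, and without Het animal 20, Het animal 23 or any 1 KO animal. Without Het animal 1 there were 5 calls (13.2%, beside 28.5% of all tested genes) and without Het animal 21 there were 3 (7.89%, beside 16.3%). Rrm2 (0.83, SE 0.278, adjusted edgeR p 0.0943) and Mcm3 (-0.84, SE 0.302, adjusted edgeR p 0.109) had the next smallest p. For the antibody no gene of the 38 passed (beside 0.0924% of all tested genes; 1 of the 38 at an unadjusted p under 0.05, 2.63% beside 21.1% of all tested genes, and 0 with DESeq2). Ccnd2 again had the smallest p, with a difference of 0.51 (SE 0.230, adjusted edgeR p 0.229), followed by Cdk2 (-0.40) and Pcna (-0.33).

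The difference between the KO effect and the antibody effect passed for none of the 38 in isolates (beside 0.0% of all tested genes) and none in forebrain (beside 0.0101%). Unadjusted p under 0.05 were found for 4 of the 38 in isolates (10.5%, beside 3.95% of all tested genes) and 2 in forebrain (5.26%, beside 3.07%), and DESeq2 called 0 in both tissues. In isolates the smallest p were those of Mki67 (0.96, SE 0.314, adjusted edgeR p 0.847), Cenpf (0.92, SE 0.309, adjusted edgeR p 0.886) and Birc5, which encodes survivin (0.89, SE 0.334). All 16 G2 and mitosis genes lay above 0 in that difference, with a median of 0.63, so the contrast between the experiments that the separate fits show for these genes was not itself past the threshold for any of them. In forebrain the smallest p were those of Mcm3 (0.77, SE 0.269), Mki67 (0.47, SE 0.192) and Top2a (0.37, SE 0.215), each with an adjusted edgeR p of 1.00.

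**Figure D4:**
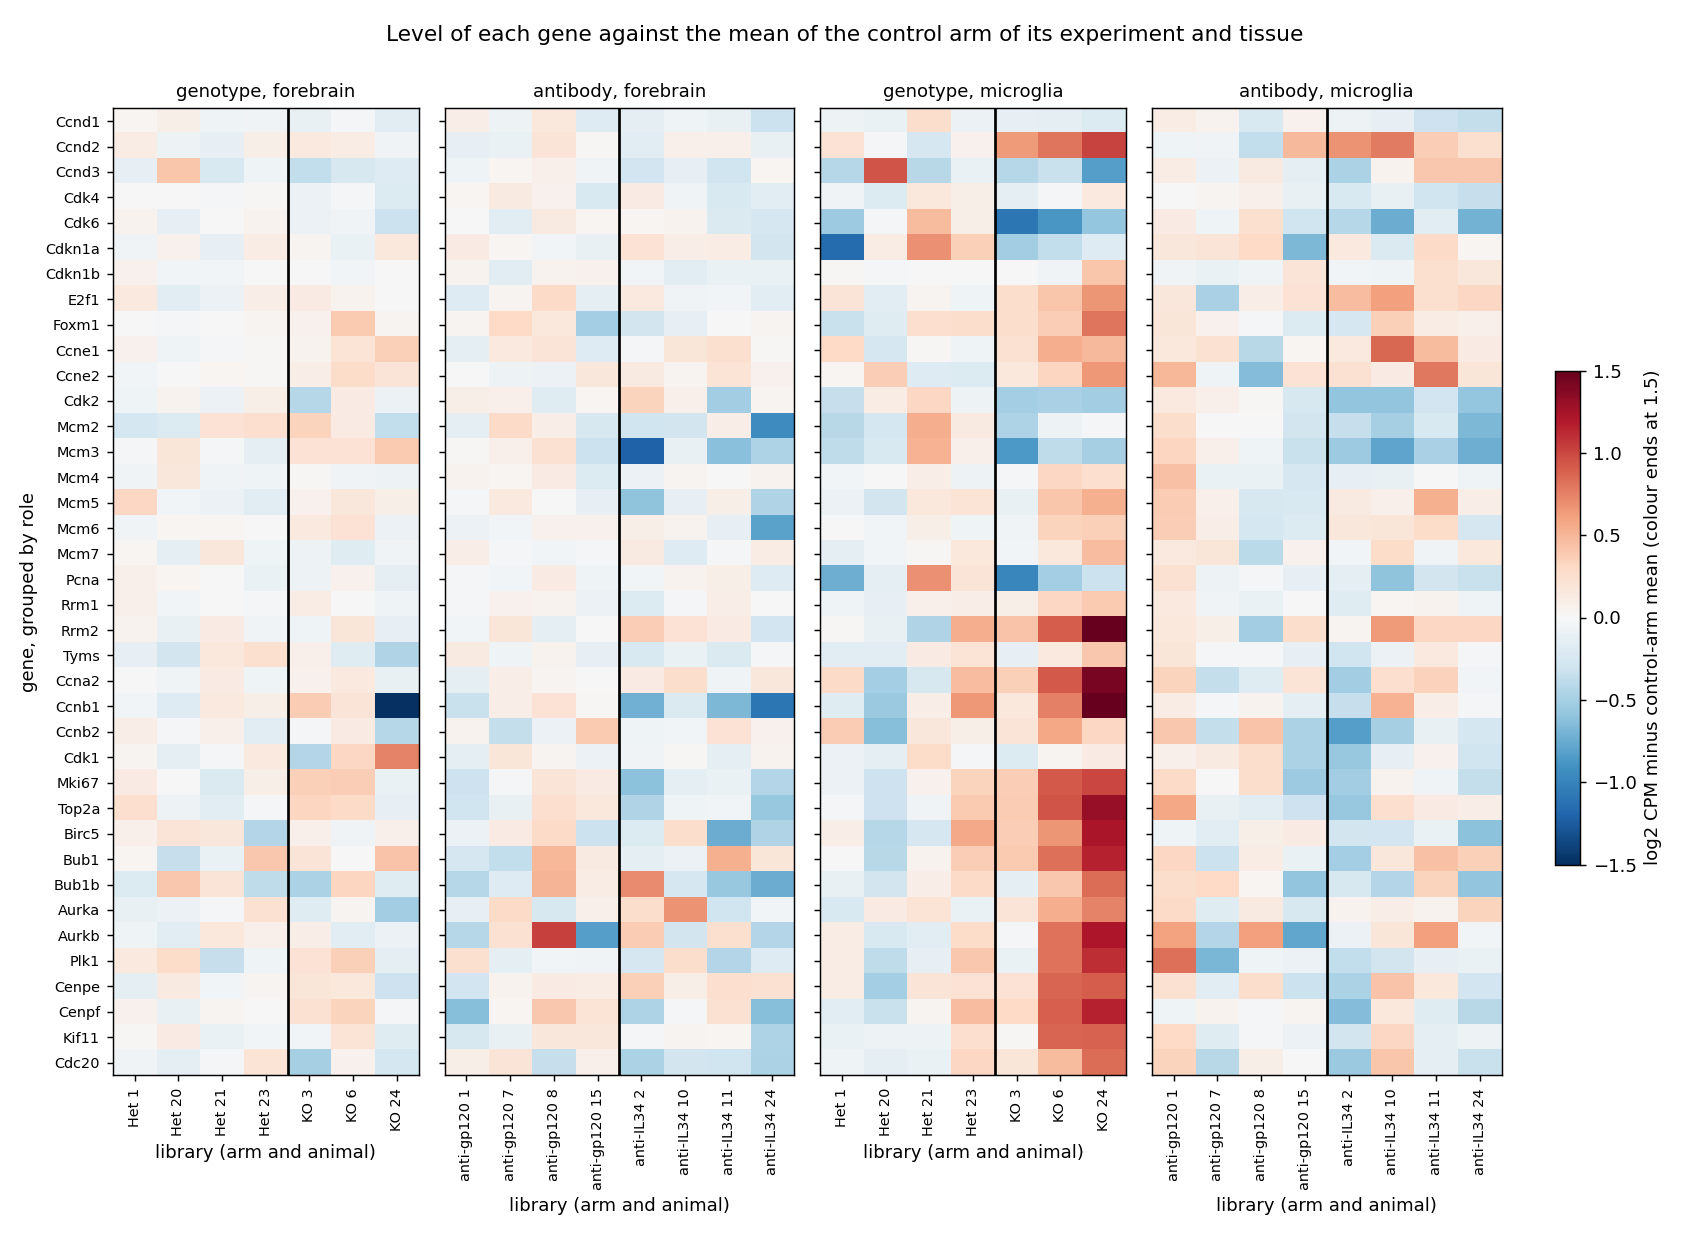
Log2 CPM of each of the 38 genes (rows, by role) in every library (columns, by arm and animal) minus the mean of the control arm of the same experiment and tissue, from blue (below) to red (above), with the colour scale ending at 1.5. The red block of G2 and mitosis genes lies in the isolates of KO animals 6 and 24 and is fainter in KO animal 3.

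Other genes of the cycle, in 3 lists that leave out the 38, are given for comparison, first in KO isolates. Of 56 other G2 and mitosis genes 47 lay above 0, with a median of 0.64 beside 0.02 over all tested genes. Only 1 passed, as higher (1.79%, beside 0.143% of all tested genes higher and 5.37% in either direction). It was Kif4, a chromosome-associated kinesin (log2 0.87, SE 0.18, adjusted edgeR p 0.0423). Its call and those of the regulators below were lost in the 5 fits without 1 animal in which no gene was called. Kif20a (0.69) and Espl1, the separase (-0.69), had adjusted edgeR p of 0.0577 and 0.0643. Of 37 tested replication and S-phase genes 27 lay above 0, with a median of 0.18 and none passing, the smallest p being those of Pole (0.79), Dut (0.62) and Clspn (0.82). Of 39 tested regulators 17 lay above 0, and 2 passed, both lower (5.13%, beside 5.22% of all tested genes): Ccng2, which encodes cyclin G2 (log2 -0.81, SE 0.12, adjusted edgeR p 0.0177), and Myc (log2 -1.22, SE 0.26, adjusted edgeR p 0.0484).

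In anti-IL34 isolates none of these lists had a gene that passed. The other G2 and mitosis genes had a median of 0.05, with Ncaph, a condensin subunit (-0.90, adjusted edgeR p 0.0697), and Espl1 (-0.96, adjusted edgeR p 0.0820) leading by p. The regulators E2f3 (-0.60, adjusted edgeR p 0.0759) and Myc (-0.86, adjusted edgeR p 0.0817) lay below 0, as in KO isolates. In forebrain no gene of the 3 lists passed in either experiment, with medians between -0.04 and 0.06. Between the tissues of control animals 45 of the 56 other G2 and mitosis genes, 25 of 37 replication genes and 27 of 40 regulators passed the test as higher in the isolates (80.4%, 67.6% and 67.5%), beside 40.5% of all tested genes. The smallest p were those of Myc (3.91), Rbl1, a relative of the retinoblastoma protein (2.54), and Espl1 (3.26), while Dut, the dUTPase, was lower (-1.64).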

How the data were processed

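The authors deposited whole-number read counts per gene. The submitters' processing notes name STAR 2.7.5c, featureCounts 1.6.3, R 4.4.0 and GRCm38, without saying which step used each. Per the labels, TRIzol-extracted RNA was amplified with the SMART-Seq v4 kit. The deposited gene length equals the GENCODE M21 gene span for 51183 of 51498 matched genes and for all 38 described here, so intronic reads appear to be counted. The TPM table, which uses those lengths, was not used, nor were 6 count columns that matched no labelled sample.

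The 38 genes, the other lists and the markers were chosen with earlier results of these data known. Groups came from the labels. Whether arm replicates were housed or bred separately is not given, so p-values measure the spread between these animals. Counts were tested with edgeR 4.0.16 (R 4.3.3) using the quasi-likelihood test, TMM factors, the package's default expression filter and a term for sex, and p-values were adjusted by Benjamini-Hochberg over all genes tested, with a threshold of 0.05. A standard error is the fitted log2 change over the root of its F statistic. Each comparison of arms used the libraries of 1 tissue and experiment. The tissue contrast used 8 control animals and terms for experiment and sex, the tissue differences an interaction over both tissues, and the differences between experiments the 15 libraries of a tissue. The main fits of the tissue contrast and tissue differences took both libraries of a mouse as independent, and the replicate block keeps their pairing. On simulated counts for the KO and Het isolates, 194 of 200 genes changed by a log2 of 2 were recovered. Changes of the 38 genes in those isolates lay between -0.90 and 0.84, and recovery of changes of that size was not tested.

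The sample sheet gives both libraries of a mouse 1 animal number and matched the labels in 30 of 30 libraries. Their deviations from the group means correlated with a median of 0.198 (0.0781 to 0.385, above 0.1 in 12 of 15 animals). No replicate pair looked like a repeated library (chi-square over its degrees of freedom at least 5.48 in 42 pairs). CPM were TMM-scaled within a tissue, so levels of the 2 tissues are not on exactly 1 scale and the fits give the tissue differences. Named genes were those past the threshold or, below 6, the smallest p up to 6 (8 at each end of the tissue contrast, 3 in differences and lists), with Mki67, Top2a, Ccnd1 to Ccnd3, Cdkn1a, Cdkn1b, Cdk1, Pcna and Mcm2 always given. Other genes with values were chosen after these were seen. DESeq2 1.42.0, other size factors, no filter, no sex terms, all 15 libraries, a replicate block and leaving out each animal were alternatives.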

Additional observations from a re-analysis of the deposited data

Results flagged for a closer look

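The difference of the KO effect between isolates and forebrain for Ccnd2, 0.75 on the log2 scale (adjusted edgeR p 0.0481), was flagged because the difference itself passed the test. It did not pass with the animal as a replicate block.

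Single libraries stood apart from the other 3 of their arm in 14 of 228 groups of 4 (6.14%), by the gap to the nearest library as a share of the range. Chance flags about 1 in 20 such groups. In the isolates of Het animals these were Ccnd1 in animal 21 (96.3 CPM), Ccnd3 in animal 20 (158 CPM) and, in animal 23, Kif11 (18.7 CPM) and Cdc20 (4.47 CPM), all highest. In anti-gp120 isolates they were Ccnd1 in animal 8 (64.7 CPM, lowest) and Cdkn1b in animal 15 (64.0 CPM, highest). In anti-IL34 isolates they were Ccne2 (2.56 CPM), Cdk2 (23.0 CPM) and Mcm5 (9.80 CPM) in animal 11, the only female of its arm, and Aurka in animal 24 (2.81 CPM), all highest. In forebrain they were Mcm4 in Het animal 20 (11.0 CPM, highest), Cdkn1b in anti-gp120 animal 7 (49.1 CPM, lowest), Mcm7 in anti-gp120 animal 1 (8.39 CPM, highest) and Kif11 in anti-IL34 animal 24 (4.13 CPM, lowest).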

How the results depend on the processing

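Between KO and Het isolates 1 of the 38 genes was called, and 8 with DESeq2 (7 higher; 21.1%, beside 21.4% of all genes tested), 5 with no low-count filter (13.2%, beside 6.78%), 4 with no sex terms (10.5%, beside 12.04%), 7 with all 15 libraries of the tissue (18.4%, beside 14.6%) and 0 to 7 on leaving out 1 animal. The 7 (18.4%, beside 31.5% of all genes tested) came without Het animal 1 and 3 (7.89%, beside 17.2%) without Het animal 21, and 0 without Het animal 20 or 23 or any KO animal, when no gene of the table was called. Between the antibody isolates 0 were called, and 2 with DESeq2 (5.26%, beside 11.5%), 1 with no filter (2.63%, beside 2.75%), 1 with no sex terms (2.63%, beside 5.59%) and 0 to 6 on leaving out 1 animal (6 when anti-gp120 animal 15 was dropped, beside 40.4% of all genes, 2 when anti-IL34 animal 11 was, beside 3.02%). An arm loses 1 sex when KO animal 3 or animal 11 is dropped. In forebrain 0 were called in either experiment in every fit except 1 between KO and Het with no filter (Ccnd3). The tissue difference of the KO effect had 1 call, and 3 with DESeq2 (7.89%, beside 18.1%), 0 with size factors by relative log expression, 0 with the animal as a replicate block and 0 to 5 on leaving out 1 animal. That of the antibody effect had 0, with 0 to 3 on leaving out 1 animal (3 without anti-gp120 animal 15, beside 29.9% of all genes) and 0 with the replicate block. The tissue contrast kept 37 calls under every alternative, the replicate block included, and the difference between experiments kept 0. The causes of these changes were not tested. Over 80 single-gene results and 1049 alternative values, 998 stayed on the same side of the threshold with the same call, 12 lost it and 39 gained it. All 12 losses were of Ccnd2, in KO isolates or in the tissue difference of the KO effect, so the total of 998 does not describe those calls. The sign differed in 31, none of them called. The lowest count of any of the 38 genes was 7 in forebrain and 15 in isolates, so counting error is part of the spread of the lowest genes in both tissues, and its share was not computed.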
